A study of Arabidopsis thaliana with 6 samples.

Results

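Transcripts of autophagy genes with an ATG symbol were followed in leaves of Arabidopsis thaliana shortly after wounding. The genes were taken as every probe set whose platform annotation lists 1 gene with a symbol made of ATG and a number. The rule found 8 genes of 13355 named from the table, with 8 of its 22746 probe sets: 7 for forms of ATG8 (ATG8B, ATG8C, ATG8D, ATG8E, ATG8F, ATG8G and ATG8H) and 1 for ATG3, 1 for each gene. The annotation files 3 further autophagy genes under other names, which the RefSeq gene table (TAIR10.1) pairs with ATG synonyms: APG8A is ATG8A, APG8H is ATG8I, and AT5G66930 is ATG101. They are not among the 8 and are described apart, and the platform's APG8H is not ATG8H.

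The plants were of the ecotype Colombia, as the labels spell it, 5 weeks old and grown in soil at 21°C with 10 h of light and 14 h of dark. In wounded plants 3 rosette leaves were clamped with tweezers across the midvein, and leaves were taken 10 min later. Control arrays carry leaves of unwounded plants, local arrays the wounded leaves, and systemic arrays unwounded leaves of wounded plants. Each group has 2 arrays, which the labels call biological replicates, each made from the pooled leaves of 3 plants. Single plants cannot be told apart, and the number of arrays limits the precision of every value. Levels are log2 RMA values, a scale on which a step of 1 is a doubling, and a difference is the mean of the first group minus that of the second.

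Autophagy is the route by which a cell encloses parts of its own cytoplasm in a double membrane, the autophagosome, and delivers them to the vacuole for breakdown. ATG8 proteins are small relatives of ubiquitin that become attached to a lipid of the growing membrane, where they also bind the receptors that bring cargo. ATG3 is the conjugating enzyme that passes ATG8 to the lipid. In Arabidopsis the ATG8 family is grouped into ATG8A to ATG8D, ATG8E to ATG8G, and the more divergent pair ATG8H and ATG8I, which end in the glycine used for conjugation and so need no trimming. The pathway is active in leaves under carbon and nitrogen shortage, in the dark and during senescence.

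The arrays behaved as leaf samples with a wound response. RCA and LHCB4.1, genes of photosynthesis, lay between 14.20 and 14.61 on all 6 arrays, and replicate arrays correlated across probe sets at 0.995, 0.997 and 0.996 in control, local and systemic leaves. ORA47, a wound-induced regulator of jasmonate synthesis, stood at 5.77 and 5.45 on the control arrays, 12.21 and 12.35 on the local arrays, and 10.76 and 9.42 on the systemic arrays. For the ubiquitin control transcript the 3' probe set exceeded the 5' one, which reflects RNA integrity and amplification, by 0.97 and 1.05 in local, 1.33 and 1.25 in control and 1.23 and 1.26 in systemic leaves. The same measure for GAPDH was 1.28 and 1.03 in local, 1.09 and 0.97 in control and 1.5 and 1.08 in systemic leaves, and for actin it lay between 3.51 and 3.97, with the groups overlapping in both. Its part in the ATG values was not tested. Of 28 marker genes of other cell types and of mesophyll, 7 matched a probe set with 1 listed gene. The dividing cell marker AUR1 and PYK10, listed as a root marker, fell in both leaves, with differences of -0.89 and -0.67 for AUR1 and -3.25 and -3.08 for PYK10. PYK10 stood at 6.91 and 7.72 in control. On the local and systemic arrays it lay between 3.95 and 4.25, under the lower quartile of each array. The phloem sugar transporter gene SWEET11 rose by 0.79 in local leaves, but did not pass when local array 2 was left out (limma, adjusted p = 0.059). The trichome gene TRY and the guard cell gene FMA passed in neither comparison with control (limma, adjusted p from 0.099 to 0.67). Their part in the ATG values was not tested. In pools of whole leaves, fewer cells of a type and less RNA per cell cannot be told apart.

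**Figure D1:**
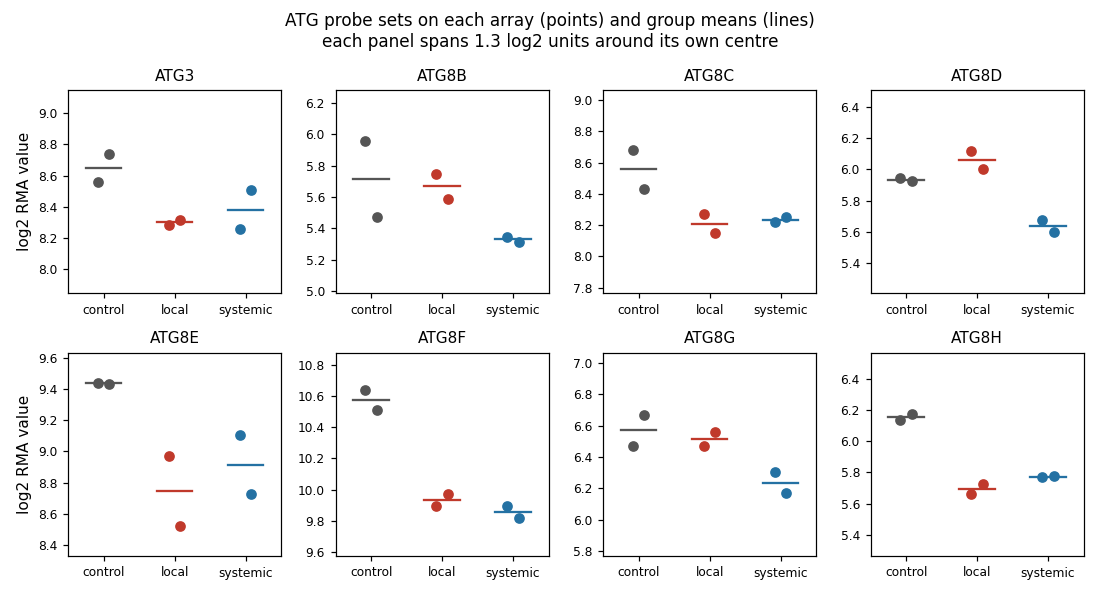
Level of the 8 ATG probe sets (log2 RMA value, vertical axis) on each of the 2 control, 2 local and 2 systemic arrays (points), with group means as lines, each panel spanning the same number of log2 units. In every panel both systemic points lie below both control points, while the local points of ATG8B, ATG8D and ATG8G do not lie below the control points.

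Unwounded leaves of wounded plants had lower ATG values throughout. On both systemic arrays all 8 members stood below both control arrays, where 27.9% of all probe sets tested did so. Their log2 differences from control ran from -0.72 for ATG8F to -0.27 for ATG3, with a median of -0.36, against a median of -0.02 over all probe sets. Under the model fitted to all probe sets (limma, adjusted over all of them), 2 of the 8 passed an adjusted p of 0.05, both lower: ATG8F and ATG8H. The background of probe sets called lower in this comparison is 3.67%. The other 6 did not pass (adjusted p from 0.10 to 0.23).

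In the wounded leaves themselves the members spread more widely. The differences ran from -0.69 for ATG8E to 0.12 for ATG8D, with a median of -0.35 against -0.04 over all probe sets. ATG8E, ATG8F and ATG8H fell, 3 of the 8, with 13.7% of all probe sets called lower. Both local arrays lay below both control arrays in 5 members, a pattern seen in 35.8% of probe sets, above them in ATG8D, as in 23.5% of probe sets, and overlapped with them in ATG8B and ATG8G. The range of the 8 differences was 0.81 in local and 0.45 in systemic leaves. After cyclic loess scaling the local median was -0.26. The 2 comparisons share their control arrays, so their values are given side by side and are not independent of each other.

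**Figure D2:**
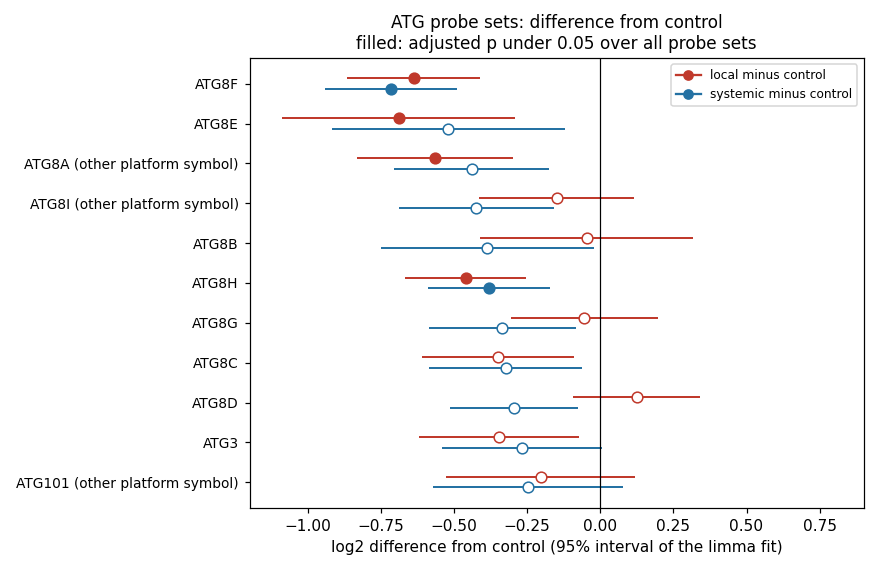
Log2 difference from control (horizontal axis, with the 95% interval of the limma fit) of the 8 ATG members and of the 3 genes filed under other platform symbols, in local (red) and systemic (blue) leaves. Filled points passed an adjusted p of 0.05 over all probe sets: ATG8F and ATG8H in both leaves, ATG8E and ATG8A in local leaves.

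Among the forms ATG8E to ATG8G, ATG8F had the clearest change. It stood at 10.64 and 10.51 on the control arrays, at 9.90 and 9.97 on the local arrays, and at 9.90 and 9.82 on the systemic arrays. The control arrays were the high ones, and the lowest of them was 0.54 above the highest local array and 0.61 above the highest systemic array. ATG8F fell by 35.8% in local leaves, a log2 difference of -0.64 ± 0.10 (SE, limma, adjusted p = 0.0026). In systemic leaves it fell by 39.1%, a difference of -0.72 ± 0.10 (SE, limma, adjusted p = 0.0044). Only 1.73% of all probe sets had a systemic difference as low or lower, and 5.23% a local one. Local and systemic leaves were not told apart for this gene, with a difference of 0.08 and a 95% interval from -0.15 to 0.30. Both calls held under all 15 alternatives run, those with 1 array left out included (highest adjusted p = 0.026 in local and 0.029 in systemic leaves).

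ATG8E had the lowest local difference of the members and the widest spread within the wounded plants. It stood at 9.44 and 9.43 in control, at 8.97 and 8.52 in local, and at 9.10 and 8.73 in systemic leaves. The control arrays lay together above all 4 others, and the local and systemic arrays overlapped. It fell by 38.0% in local leaves (-0.69 ± 0.17, SE, limma, adjusted p = 0.022). The systemic difference of -0.52 ± 0.17 did not pass (adjusted p = 0.12), with a 95% interval from -0.92 to -0.13. Leaving out control array 1 or 2 ended the local call (adjusted p = 0.077 and 0.075), as did leaving out local array 2 (-0.47, adjusted p = 0.12), and with cyclic loess it missed the threshold (adjusted p = 0.0504).

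ATG8G separated the leaves differently. It was at 6.47 and 6.67 in control, 6.47 and 6.56 in local, and 6.30 and 6.17 in systemic leaves. The local arrays lay within the range of the control arrays and the systemic arrays lay below both groups. The differences were -0.05 ± 0.11 in local (adjusted p = 0.79) and -0.34 ± 0.11 in systemic leaves (limma, adjusted p = 0.11), neither past the threshold. After cyclic loess the local difference was 0.04, and with control array 2 left out it was 0.04 as well.

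Of the forms ATG8A to ATG8D, 3 are members, and none passed in either comparison with control (limma). At an unadjusted p under 0.05 (limma) stood ATG8C in local leaves and all 3 in systemic leaves. Of all 22746 probe sets, 7852 stood there in local and 5049 in systemic leaves. ATG8C was at 8.68 and 8.43 in control, 8.27 and 8.15 in local, and 8.22 and 8.25 in systemic leaves. Both kinds of leaves from wounded plants lay below the control arrays and overlapped with each other. The differences of ATG8C were -0.35 ± 0.11 (limma, adjusted p = 0.057) and -0.32 ± 0.11 (adjusted p = 0.13), and the local one passed once control array 2 was left out (-0.47, adjusted p = 0.032) or probe sets below the median were (0.040). ATG8B was at 5.96 and 5.47 in control, 5.75 and 5.59 in local, and 5.35 and 5.31 in systemic leaves. Its control arrays were 0.49 apart, the widest gap between replicates among the 8, and the local arrays lay inside that gap. The differences of ATG8B were -0.05 ± 0.16 in local and -0.39 ± 0.16 in systemic leaves (limma, adjusted p = 0.89 and 0.20). With control array 2 left out the systemic difference was -0.63 and passed (adjusted p = 0.029), and with control array 1 left out the local one was 0.20, on the other side of 0, as it also was with local array 2 left out or with cyclic loess (0.03 in each).

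ATG8D had the largest difference between local and systemic leaves among the 8. Local and systemic arrays also did not overlap in ATG8B, ATG8G and ATG8H. It stood at 5.95 and 5.92 in control, at 6.11 and 6.00 in local, and at 5.68 and 5.60 in systemic leaves. The 3 groups did not overlap: the local arrays were highest, the control arrays in the middle and the systemic arrays lowest. Neither difference from control passed, at 0.12 ± 0.09 in local (limma, adjusted p = 0.42) and -0.30 ± 0.09 in systemic leaves (adjusted p = 0.10). Wounded leaves were above systemic leaves by 0.42 ± 0.09 (limma, adjusted p = 0.030), with a 95% interval from 0.20 to 0.64. The call ended on leaving out local array 1 or 2 (adjusted p = 0.21 and 0.065) or systemic array 1 or 2 (adjusted p = 0.084 and 0.17), and with trended moderation (adjusted p = 0.060).

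ATG8D was the sole member called between local and systemic leaves, in a comparison where 9.7% of all probe sets were called and 4.77% were called higher. The local arrays lay above both systemic arrays in ATG8B, ATG8D and ATG8G, against 22.3% of all probe sets, and below them in ATG8H, as in 31.1% of all probe sets. The differences of the other 7 members between the leaves lay between -0.17 for ATG8E and 0.34 for ATG8B. Their 95% intervals reached from -0.56 for ATG8E to 0.70 for ATG8B.

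ATG8H, of the divergent pair, had closely matching replicates. It was at 6.14 and 6.17 in control, 5.66 and 5.73 in local, and 5.77 and 5.78 in systemic leaves. The control arrays were the high ones, by at least 0.41 over the local and 0.36 over the systemic arrays. It fell by 27.4% in local leaves (-0.46 ± 0.09, SE, limma, adjusted p = 0.0076). In systemic leaves it fell by 23.2% (-0.38 ± 0.09, SE, limma, adjusted p = 0.038). The local call ended on leaving out local array 1 (-0.43, adjusted p = 0.060). The systemic call ended on leaving out any 1 of the 6 arrays (adjusted p from 0.065 to 0.16) and with cyclic loess (adjusted p = 0.0505), trended moderation (0.085) or the 4 arrays of the comparison alone (0.065), while its difference stayed between -0.40 and -0.34.

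ATG3, the conjugating enzyme and the member that is not an ATG8 form, lay within the range of the ATG8 forms in local leaves and just above it in systemic leaves. It was at 8.56 and 8.74 in control, 8.29 and 8.31 in local, and 8.26 and 8.50 in systemic leaves. The local and the systemic arrays were below both control arrays, with a margin of 0.24 in local and 0.05 in systemic leaves. Its differences were -0.35 ± 0.12 (limma, adjusted p = 0.068) and -0.27 ± 0.12 (adjusted p = 0.23), and the local one passed with probe sets below the median left out (0.048). The 7 ATG8 forms alone had medians of -0.35 in local and -0.38 in systemic leaves. With a single gene outside ATG8, no difference between the forms and the rest of the machinery was tested.

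No detection limit was computed, and whether each of the 8 lay above background was not tested. All stood above the lower quartile of their array (4.41 to 4.48) on all 6 arrays, but ATG8B, ATG8D and ATG8H stayed below the median of their array (6.22 to 6.29) on all 6 arrays, in the part of the scale where RMA compresses differences. None of the 8 carries a probe set suffix that marks probes shared between genes, and how far near-identical ATG8 transcripts share signal was not tested.

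**Figure D3:**
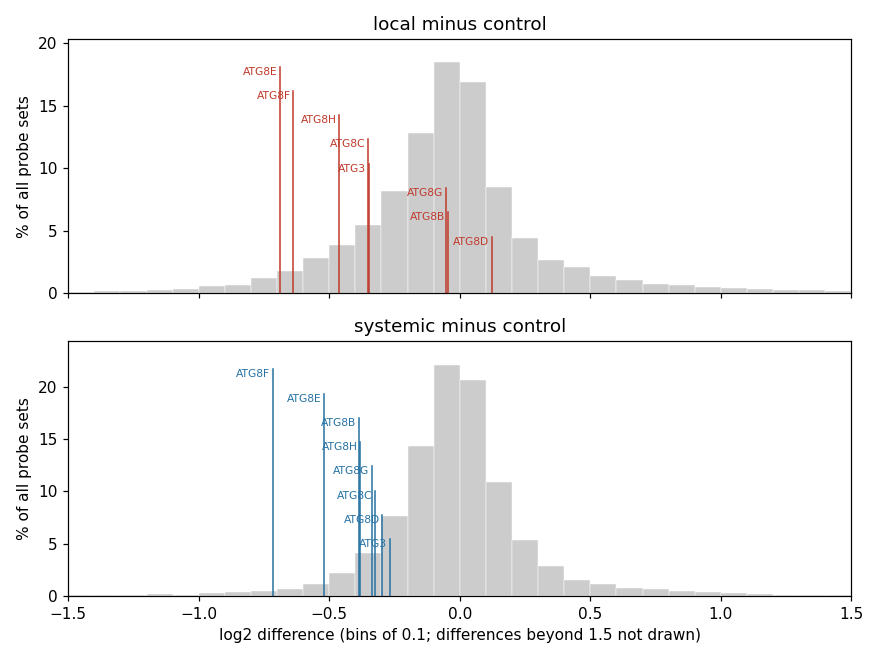
Share of all 22746 probe sets (vertical axis, percent) by log2 difference from control in bins of equal width, for local (upper) and systemic leaves (lower), with the 8 ATG members as lines. In systemic leaves all 8 lie left of 0, between -0.72 and -0.27. In local leaves they reach from -0.69 to 0.12.

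The 3 autophagy genes with other platform symbols were also below both control arrays on both systemic arrays, as were 27.9% of all probe sets. ATG8A stood at 7.96 and 7.69 in control, 7.22 and 7.29 in local, and 7.34 and 7.42 in systemic leaves. It fell by 0.57 ± 0.11 in local leaves (limma, adjusted p = 0.0091), a call that rested on local array 1 (adjusted p = 0.067 when it was left out). Its systemic difference of -0.44 ± 0.11 was at adjusted p = 0.055, and it passed with control array 2 left out (adjusted p = 0.033), with median centring (0.045), with robust moderation (0.049) or with probe sets below the median left out (0.040). ATG8I, the other form of the divergent pair, was at 9.80 and 9.82 in control, 9.80 and 9.51 in local, and 9.40 and 9.36 in systemic leaves. Its local replicates were apart, one at the control level, and its differences were -0.15 ± 0.11 (limma, adjusted p = 0.42) and -0.42 ± 0.11 (adjusted p = 0.062), the latter past the threshold with local array 1 or 2 or both left out (adjusted p = 0.047 each), with trended moderation (0.041) or with probe sets below the median left out (0.045). ATG101, a subunit of the kinase complex that starts autophagy, was at 7.08 and 7.24 in control, 7.15 and 6.76 in local, and 6.95 and 6.87 in systemic leaves. Its differences were -0.20 ± 0.14 and -0.25 ± 0.14 (limma, adjusted p = 0.36 in each). With these genes 4 of 11 were called in local and 2 of 11 in systemic leaves, all lower, beside 13.7% and 3.67% of all probe sets called lower, and the medians were -0.35 and -0.38.

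These 11 are the genes, of a list of 42 of the core machinery, that matched a probe set with 1 listed gene. Genes such as ATG5, ATG7, ATG9 and the ATG18 forms were not matched and not analysed. Whether probe sets with several listed genes (503) or none (8730) measure them was not examined. Of 98 listed genes of upstream signalling, cargo receptors, starvation, senescence, vacuolar proteases and the proteasome, 10 were matched in this way. They are called measured below, and the receptor and starvation lists had none. Among 3 measured genes of energy signalling, AKINBETA1, a regulatory subunit of the SnRK1 kinase that promotes autophagy when energy is short, was at 9.66 and 9.88 in control, 8.82 and 8.78 in local, and 9.08 and 9.17 in systemic leaves. It fell by 0.97 ± 0.11 in local (limma, adjusted p = 0.00054) and by 0.64 ± 0.11 in systemic leaves (limma, adjusted p = 0.010), the latter failing on leaving out systemic array 1 (adjusted p = 0.074). RAPTOR1 and RAPTOR2 encode partners of the TOR kinase, which holds autophagy back in well-fed cells. RAPTOR2 rose by 0.56 ± 0.10 in systemic leaves (limma, adjusted p = 0.013), a call that ended on leaving out control array 2 or systemic array 2 (adjusted p = 0.059 and 0.078), and differed by 0.13 ± 0.10 in local leaves. RAPTOR1 differed by -0.07 ± 0.10 and 0.01 ± 0.10.

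Of 4 measured vacuolar proteases, which act at the breakdown end of the pathway, GAMMA-VPE passed in 1 comparison with control and the others in neither. GAMMA-VPE, a vacuolar cysteine protease of leaves, was at 10.28 and 9.96 in control, 10.48 and 10.19 in local, and 9.52 and 9.56 in systemic leaves. It fell by 0.58 ± 0.14 in systemic leaves (limma, adjusted p = 0.044), and differed by 0.22 ± 0.14 in local leaves. Leaving out control array 1, systemic array 1 or systemic array 2 ended that call (adjusted p = 0.17, 0.19 and 0.14). BETA-VPE differed by 0.45 ± 0.15 in local (limma, adjusted p = 0.059) and 0.08 ± 0.15 in systemic leaves, and the local difference passed with systemic array 1 or 2 or both left out (adjusted p = 0.032 each), after median centring (0.048) or cyclic loess (0.037), or with probe sets below the median left out (0.045). ALPHA-VPE and DELTA-VPE differed by 0.09 and -0.0050 in local and by 0.02 and 0.14 in systemic leaves. RPN12A, a subunit of the proteasome, the other large route of protein breakdown, fell by 0.53 ± 0.11 in local leaves (limma, adjusted p = 0.0094), a call that ended on leaving out local array 2 (adjusted p = 0.060). Its systemic difference of -0.42 ± 0.11 (adjusted p = 0.056) passed with trended moderation (0.037) or with probe sets below the median left out (0.040).

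Of 12 listed senescence genes, 2 were measured. SAG101, a partner of the immune regulator EDS1, rose by 0.43 ± 0.10 in local leaves (limma, adjusted p = 0.017), a call that ended on leaving out control array 1, local array 1 or local array 2 (adjusted p = 0.072, 0.11 and 0.053). SAG29, a sugar transporter gene of ageing leaves, stood at 6.64 and 5.34 on control arrays that were far apart, and at 4.85 and 4.89 in local and 5.05 and 5.12 in systemic leaves. It fell by 1.11 ± 0.34 in local leaves (limma, adjusted p = 0.049). With control array 1 left out the difference was -0.46 and with control array 2 left out it was -1.76, and the call ended on leaving out any local or systemic array, with cyclic loess, with robust moderation and with the 4 arrays of the comparison alone (adjusted p from 0.073 to 0.18). Its systemic difference of -0.90 ± 0.34 (adjusted p = 0.16) passed with control array 2 left out (-1.55, adjusted p = 0.0011).

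The genes whose pattern over the 6 arrays lay nearest to a called member were found by Euclidean distance after the mean of each probe set was taken off, among 13513 probe sets with 1 listed gene. For ATG8F these were TUB5, a beta-tubulin gene, IVD, an enzyme of leucine breakdown, and UGT85A2, a glucosyltransferase gene, at distances of 0.182, 0.186 and 0.194 (Pearson r = 0.975, 0.974 and 0.970 over the 6 arrays). For ATG8H they were AT4G21450, AT2G18520 and AT3G13740 (0.0498, 0.0529 and 0.0541), for ATG8E AT2G39630, AT5G27550 and AT3G22970 (0.207, 0.227 and 0.267), and for ATG8D AT5G15190, AT4G13530 and PIFI (0.0875, 0.0985 and 0.102). No called member had another member among its nearest genes. The nearest member to ATG8F was ATG8H, at rank 148, to ATG8D it was ATG8G, at rank 284, to ATG8E it was ATG8F, at rank 301, and to ATG8H it was ATG3, at rank 445. With groups this small many genes share any given pattern, and the likeness is a description of these 6 arrays.

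**Figure D4:**
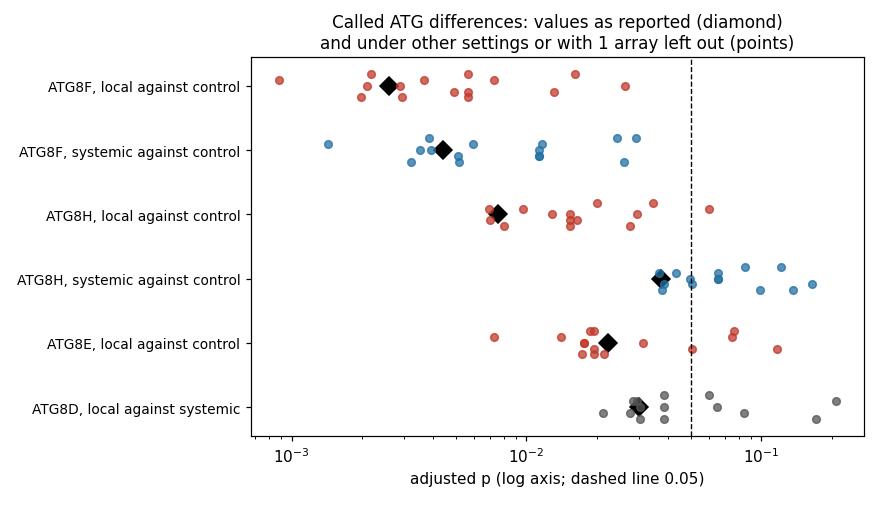
Adjusted p (horizontal log axis, dashed line at 0.05) of the 6 called ATG differences as reported (diamond) and under each alternative setting or with 1 array left out (points). All points of ATG8F lie left of the line, and the highest is at 0.029. Points of ATG8H in systemic leaves reach 0.16.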

How the data were processed

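Total RNA (6 µg per pool) was labelled by one-cycle 3' amplification and hybridised to Affymetrix arrays, per the labels' protocols. The authors deposited 1 log2 value per probe set and array. RMA and Affymetrix Expression Console are named in the submitters' processing notes, without versions. RMA gives the probes of all arrays 1 distribution before they are summarised, which hides most of any shift common to all transcripts. The deposited probe set values still differed slightly between arrays, with medians from 6.22 to 6.29.

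Of 22810 probe sets, 64 controls were left out and 22746 tested with limma 3.58.1 in R 4.3.3: a mean per group, a spread shared by all 6 arrays (degrees of freedom: residual 3, prior 4.85), two-sided tests, Benjamini-Hochberg over all probe sets, threshold 0.05. The fit was tested on simulated data. Genes were named from the platform annotation, updated through the RefSeq table. All 8 members matched by Entrez number. Probe sets with several listed genes (503) or none (8730) were not named. All members and every measured gene of the related lists are named, with the 3 nearest patterns of each called member. The members and lists were chosen with earlier results of these data known. Alternatives were a replicate block, 2 rescalings (median centring, cyclic loess), dropping dim probe sets at 2 levels, trended and robust moderation, fewer arrays or probe sets, members by synonym, and each array left out. Promoters and proteins were not used here.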

Additional observations from a re-analysis of the deposited data

Results flagged for a closer look

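The test of wounded against systemic leaves itself was read for 11 ATG genes, 10 related genes, 7 marker genes and 3 genes chosen as known wound-response genes. Of these, 6 differed, all 3 wound-response genes among them. In this comparison 9.7% of all probe sets were called. ATG8D was higher in local than in systemic leaves by 0.42 (limma, adjusted p = 0.030), with both local arrays above and both systemic arrays below the control arrays. The ATG8D call ended on leaving out any local or systemic array, while its difference stayed between 0.36 and 0.48. RAPTOR2 was lower in local than in systemic leaves, with a difference of -0.43 (limma, adjusted p = 0.035), which did not pass on leaving out any local or systemic array (adjusted p from 0.071 to 0.24). GAMMA-VPE was higher in local than in systemic leaves by 0.80 (limma, adjusted p = 0.013), and did not pass on leaving out local array 1, systemic array 1 or systemic array 2 (adjusted p = 0.10, 0.062 and 0.069). The wound-response genes ORA47, STZ and CML38 were higher in local than in systemic leaves by 2.19, 2.66 and 4.62 (limma, adjusted p = 0.010, 0.0042 and 2.5e-05). ORA47 did not pass with robust moderation (0.059) or on leaving out local array 1 (0.069).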

How the results depend on the processing

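ATG8F kept its direction and its call in both comparisons with control under all 15 alternatives. All 8 ATG members stayed below control on every systemic array after median centring and after cyclic loess, checks chosen after seeing the data. The share of all probe sets below control on every systemic array was not computed under those settings. Leaving out 1 array cannot undo a separation that is complete on all arrays. The same 8 were therefore bound to stay below control with each array left out, and that outcome carries no information. Groups that overlap separate more easily when 1 array of a group is left out. Replicate numbers are not said to pair samples, and the deviations of replicate 1 correlated at 0.14, 0.02 and 0.20 between the groups. With the replicate number as a block 5 ATG members passed in local leaves, against 3, all lower. Of all 22746 probe sets, 3329 were then called lower there, against 3117. ATG8E passed with the block in systemic leaves (-0.52, limma, adjusted p = 0.046), where 998 of all probe sets were called lower, against 835. In systemic leaves 1 member passed, against 2, after cyclic loess, with probe sets below the median left out, with trended moderation and with the 4 arrays compared. ATG8H differed there by -0.34 with cyclic loess and by -0.38 with trended moderation or the 4 arrays, not past the threshold, and was itself left out by the filter. Between the leaves no member passed, against 1, with that filter, which leaves ATG8D out, or with trended moderation (ATG8D at 0.42). ATG8E in local leaves was at -0.61 after cyclic loess, not past the threshold, and the local median of the members was -0.26. Cyclic loess turned the sign of differences that had not passed: ATG8G 0.038 and ATG8B 0.033 in local leaves, ATG8C 0.031 between the leaves, RAPTOR1 0.018 and DELTA-VPE 0.021 in local leaves, the last also 0.030 with median centring.

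With 1 array left out, the lone array of a group is assumed to vary like the others. Members called ranged from 2 to 3 in local, 1 to 2 in systemic and 0 to 1 between the leaves, and members lower on every array between the leaves from 1 to 3. For the count of members lower on every array, the share of all probe sets was not computed with an array left out. ATG8E ranged from -0.91 to -0.47 and ATG8H from -0.49 to -0.43 in local leaves, ATG8H from -0.40 to -0.36 in systemic leaves, and ATG8D from 0.36 to 0.48 between the leaves. Ranges that crossed 0 were those of ATG8B (-0.29 to 0.20), ATG8G (-0.15 to 0.044) and DELTA-VPE (-0.093 to 0.083) in local leaves, of ALPHA-VPE (-0.018 to 0.051), RAPTOR1 (-0.059 to 0.084) and BETA-VPE (-0.11 to 0.28) in systemic leaves, and of ATG3 (-0.20 to 0.045), ATG8C (-0.087 to 0.034), ATG8E (-0.39 to 0.054), ATG101 (-0.15 to 0.24) and SAG101 (-0.0053 to 0.18) between the leaves. All probe sets called numbered 5374, 1911 and 2206 in local and systemic leaves and between them, ranging from 2823 to 5040, from 787 to 1581 and from 558 to 2329. Restricted to probe sets with 1 listed gene, fewer were tested and 2851, 1024 and 1237 were called. After cyclic loess 54.8%, 62.1% and 60.5% of the calls were higher, against 42.0%, 56.3% and 49.1%. Of the 3 nearest genes, cyclic loess kept 2 for ATG8D and ATG8H and 3 for ATG8E and ATG8F. Showing all probe sets of a gene was not run, since each ATG gene has 1. The cause of these changes was not tested where none is named.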
